A study of Drosophila melanogaster with 2 samples.

Results

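The authors' list of reproducible peaks holds 2445 binding sites of the GFP-tagged protein CG7271 in Drosophila melanogaster embryos. Of these, 563 (23.0%, exact 95% interval 21.4 to 24.7%) had their summit upstream of a promoter that reads in one direction. Within the reproducible list, which itself holds the pooled peaks of highest signal, these 563 were chosen by position. Their summit lies 1 to 500 bp upstream of the nearest transcription start site (TSS) of a protein-coding gene, and all protein-coding TSSs within 500 bp lie on the same strand. The other 1882 peaks fell between divergent promoters (475), at or downstream of a one-directional TSS (173), at starts of non-coding genes only (68) or farther than 500 bp from any TSS, here called distal (1166). The sites come from chromatin immunoprecipitation followed by sequencing (ChIP-seq) of whole embryos aged 0 to 4 h, from a transgenic line that stably expresses CG7271 with GFP fused to its C terminus, and the sex of the embryos was not collected. The sample description gives, for the precipitation, an antibody against GFP, while the antibody label names CG7271, and sonicated fragments were 200 to 800 bp long. Biological replicates 2 and 3 form 1 group, so the comparisons below are between peaks and not between conditions. Peaks called reproducible are those on the authors' list thresholded by irreproducible discovery rate (IDR), a measure of how well ranks hold between replicates. By signal they were exactly the top 2445 of the pooled list, so being listed does not show that a given peak was itself reproduced. Of the 563 upstream peaks 14 lack a summit in the replicate 2 list and 11 in the replicate 3 list. For comparison the 27163 pooled peaks that overlap no peak of the IDR list were used. These other pooled peaks therefore differ from the listed ones in signal as well as in the IDR call. Read depth is unknown from these files, no expression was measured, and a whole embryo mixes all cell types of these stages.

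The stretch just upstream of a TSS is where sequence-specific factors and the general transcription machinery meet, and it is commonly free of nucleosomes at active genes. In the compact fly genome many genes start head to head with a neighbour on the opposite strand, and a summit between such genes cannot be given to one of them. At a one-directional promoter the nearest protein-coding gene is defined, and so is the direction of any sequence near the summit. At these ages the embryo passes from divisions driven by maternal products to its own transcription and the start of gastrulation.

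The sequences below are from 6 of the 10 upstream peaks of highest signal and show what lay at the strongest sites. They were read from the RefSeq copy of the dm6 assembly, on the gene's strand, over 50 bp to either side of the summit. The 11 capital letters mark the summit and 5 bases on each side. The stretch at Ugalt ends before the TSS.
CG14100 (chr3L:19590552-19590652, minus strand): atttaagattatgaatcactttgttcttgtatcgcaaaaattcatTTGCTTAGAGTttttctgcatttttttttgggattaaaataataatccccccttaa
Ugalt (chrX:2703853-2703940, minus strand): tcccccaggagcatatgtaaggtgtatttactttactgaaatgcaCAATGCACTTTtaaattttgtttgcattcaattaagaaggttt
CG1142 (chr3R:7473896-7473996, minus strand): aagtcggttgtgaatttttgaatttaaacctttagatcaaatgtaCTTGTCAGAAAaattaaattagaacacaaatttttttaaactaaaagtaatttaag
ph-p (chrX:2137304-2137404, minus strand): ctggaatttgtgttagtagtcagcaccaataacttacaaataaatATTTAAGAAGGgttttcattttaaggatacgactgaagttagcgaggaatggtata
CG1635 (chr3R:31588487-31588587, plus strand): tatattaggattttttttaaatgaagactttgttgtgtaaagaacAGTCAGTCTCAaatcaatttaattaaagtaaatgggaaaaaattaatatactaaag
CG13921 (chr3L:1746716-1746816, plus strand): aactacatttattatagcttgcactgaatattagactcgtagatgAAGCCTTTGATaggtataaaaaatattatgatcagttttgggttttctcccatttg
These stretches are rich in A and T. The GC content within 50 bp of the summit was 26.7% at CG14100, 34.7% at Ugalt, 21.8% at CG1142 and at CG1635, 32.7% at ph-p and 30.7% at CG13921.

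One 6-mer, CCGGAA, was found more often at these summits than at weaker peaks in the same position, and 4 of the strongest sites that hold it are shown because the sequence results turn on it. The capital letters mark the 6-mer, which is printed on the strand that reads CCGGAA. Transcription factors of the ETS family are known to bind sites built on its GGAA core.
eEF1gamma (chr3R:29220186-29220211, minus strand): cacgcactcaCCGGAAacgaagaaga
yps (chr3L:12125130-12125155, plus strand): ttcgcaagctCCGGAAgtgaaacatg
RpS3A (chr4:67185-67210, plus strand): aactaataaaCCGGAAaaggtcgaat
RpL37A (chr2L:5071012-5071037, minus strand): cacttacacgCCGGAAacgaaaaatc
At yps and at RpS3A, RpL37A and eEF1gamma the gene itself reads on the other strand, and the centre of the 6-mer lay 7.5, 9.5, 24.5 and 26.5 bp downstream of the TSS, inside the window around an upstream summit. These examples are not typical. Of the 36 occurrences at upstream IDR summits most lay upstream of the TSS, and 16 were on the gene's strand.

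The strongest upstream peak lay 223 bp upstream of a TSS inside the gene px (plexus, named for its effect on wing veins; arm 2R, 22514166 to 22514461), in an intron of that gene. The authors' signal there was 636.8 in replicate 2 and 524.0 in replicate 3, where it ranked 1 in both lists. CG14100 had signals of 616.8 and 479.6 in replicates 2 and 3, with ranks of 3 and 2, and Ugalt, a UDP-galactose transporter gene, had 626.7 and 440.3, with ranks of 2 and 4. CG1142 ranked 7 and 5, and ph-p, the gene of a Polycomb group protein of the PRC1 complex, ranked 5 and 6. No peak among the 10 highest ranked below 52 in either list, which is a description, since the pooled signal that chose them was made from both replicates. That lowest rank belonged to Toll-7, a gene of the Toll receptor family, with rank 8 in replicate 2 (486.8) and rank 52 in replicate 3 (231.7). Summits at CG1635, CG13921, CG18549, CG1907 and RluA-1 lay 136, 141, 121, 180 and 202 bp upstream of the TSS. The others among the 25 highest lay at CG1888, mRpL41 (a mitochondrial ribosomal protein gene), Alg3 (a mannosyltransferase of N-glycan assembly), eEF1gamma (a translation elongation factor), MFS18, Fkbp14 (an FK506-binding protein), yps (a Y-box RNA-binding protein), bbg (a PDZ-domain protein) and gish (a casein kinase I gene). The list closes with Tina-1, for (a cGMP-dependent protein kinase gene), Regnase-1 (an RNase gene), ASPP and brwl, the last with a signal of 302.4 in replicate 2 and 191.4 in replicate 3. The 25 highest upstream peaks thus belonged to genes of many functions, among them 7 known by a CG number only.

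The share of this position among the IDR peaks was compared with that among the other pooled peaks. List and position are what the rule used, chosen with earlier results known, so this comparison describes the peak lists. Upstream one-directional summits made up 563 of 2445 IDR peaks (23.0%) and 3020 of 27163 other pooled peaks (11.1%, 10.7 to 11.5%). The odds ratio was 2.39 (2.16 to 2.65 at 95% confidence; adjusted p = 2.51e-55 by Fisher's exact test; p-values of 11 tests were adjusted together by the Benjamini-Hochberg method). The ratio was 2.58 among the 2445 highest peaks of replicate 2 alone and 2.53 among those of replicate 3 alone. The difference was not called between neighbouring ranks. Of the 2445 pooled peaks ranked directly below the IDR list, 538 (22.0%) met the same rule, and the odds ratio against them was 1.06 (0.927 to 1.21; adjusted p = 0.509 by Fisher's exact test). All such tests treat peaks as independent, although 34 of the 563 (6.04%) had another IDR summit within 1000 bp.

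The side of the promoter on which summits lay differed from both sets of weaker peaks. At one-directional promoters 563 of 736 IDR summits lay upstream (76.5%, 73.3 to 79.5%), against 3020 of 5408 other pooled summits (55.8%, 54.5 to 57.2%). The odds ratio was 2.57 (2.15 to 3.08; adjusted p = 3.35e-27 by Fisher's exact test), with 2.30 in replicate 2 alone and 3.04 in replicate 3 alone. Against the peaks ranked directly below, of which 538 of 820 (65.6%) were upstream, it was 1.71 (1.36 to 2.13; adjusted p = 1.45e-05 by Fisher's exact test). Against the neighbouring ranks the difference in side was thus called, while that in the share of all peaks was not. The side is also part of the rule that chose the 563, so this too is a description.

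Upstream summits were most frequent next to the TSS and thinned out with distance. Among the 563, 122 lay within 50 bp (21.7%), 82 at 51 to 100 bp, 98 in the next 50 bp and 78 at 151 to 200 bp, and 17 (3.02%) lay in the last 50 bp of the window. The median distance was 137 bp (quartiles 60 and 236 bp), compared with 149 bp (61 and 280.25 bp) for the 3020 other pooled peaks in the same position. A summit within 150 bp was found for 302 of 563 (53.6%) and 1522 of 3020 (50.4%), a difference that the test did not call (odds ratio 1.14, 0.951 to 1.36; adjusted p = 0.228 by Fisher's exact test). Call and direction depended on the limit, the promoter window and the peaks compared. An odds ratio above 1 was called in replicate 2 alone (1.32, adjusted p = 0.00468 by Fisher's exact test), with a limit of 250 bp (1.45, adjusted p = 0.000935), with TSSs within 1000 bp (1.51) and with outermost TSSs only (1.31). It was called below 1 with TSSs within 200 bp (0.740, adjusted p = 0.0278 by Fisher's exact test). Of the peaks ranked directly below the IDR list, 333 of 538 lay within 150 bp (61.9%), which was more than among the IDR peaks (odds ratio 0.712, 0.560 to 0.906; adjusted p = 0.0166 by Fisher's exact test). Within the 563 the stronger peaks lay farther out. The median distance was 148 bp for the 141 strongest and 168 bp for the 141 next, and 119.5 bp for the 140 and 124 bp for the 141 that follow.

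**Figure D1:**
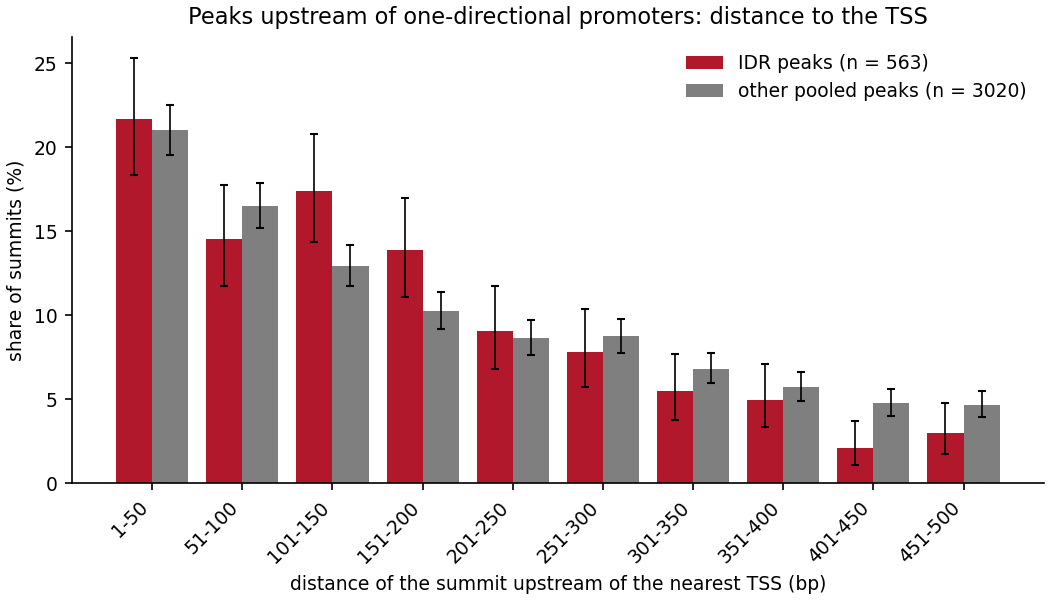
Share of summits (%) per 50 bp of distance upstream of the nearest TSS, for the 563 IDR peaks (left bars) and the 3020 other pooled peaks (right bars) upstream of one-directional promoters; error bars are exact 95% binomial intervals of the peak counts. Both sets are highest at 1 to 50 bp, with 21.7% of the IDR peaks and 21% of the other pooled peaks, and the IDR peaks are lower at 401 to 450 bp (2.13% against 4.77%).

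Over the whole IDR list upstream peaks stood above its median signal more often than peaks at or downstream of a TSS, and no difference from peaks between divergent promoters was called. The authors' signal has no stated scale, and only its order in the list was tested. Upstream peaks had a median of 163 (quartiles 133 and 222, range 115.5 to 1157.7), peaks between divergent promoters 160.5, peaks at or downstream of a TSS 138, peaks at non-coding starts only 173 and distal peaks 156. Above the median of all IDR peaks (157) stood 301 of 563 upstream peaks (53.5%, 49.2 to 57.6%), compared with 57 of 173 at or downstream of a TSS (32.9%, 26.0 to 40.5%). The odds ratio was 2.34 (1.63 to 3.34; adjusted p = 8.69e-06 by Fisher's exact test), and it was 2.07 in replicate 2 alone and 2.00 in replicate 3 alone. Among the stronger IDR peaks alone the call was lost and the direction turned, with 154 of 301 and 30 of 57 above their median (odds ratio 0.943, adjusted p = 0.886 by Fisher's exact test). Between divergent promoters 253 of 475 peaks (53.3%) stood above the median, an odds ratio of 1.01 (0.789 to 1.29; adjusted p = 0.95 by Fisher's exact test). Among distal peaks 571 of 1166 did (49.0%; odds ratio 1.20, 0.979 to 1.46; adjusted p = 0.128 by Fisher's exact test). This last difference was called in each replicate alone, with an odds ratio of 1.30 in replicate 2 (adjusted p = 0.0171 by Fisher's exact test) and 1.27 in replicate 3 (adjusted p = 0.0318). Upstream peaks, 23.0% of the IDR list, held 8 of its 20 highest peaks (40%), 33 of the 100 highest (33%) and 125 of the 500 highest (25%). Peaks between divergent promoters, 19.4% of the list, held 6, 31 and 114 (30, 31 and 22.8%), so a larger share at the top was not particular to upstream peaks.

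**Figure D2:**
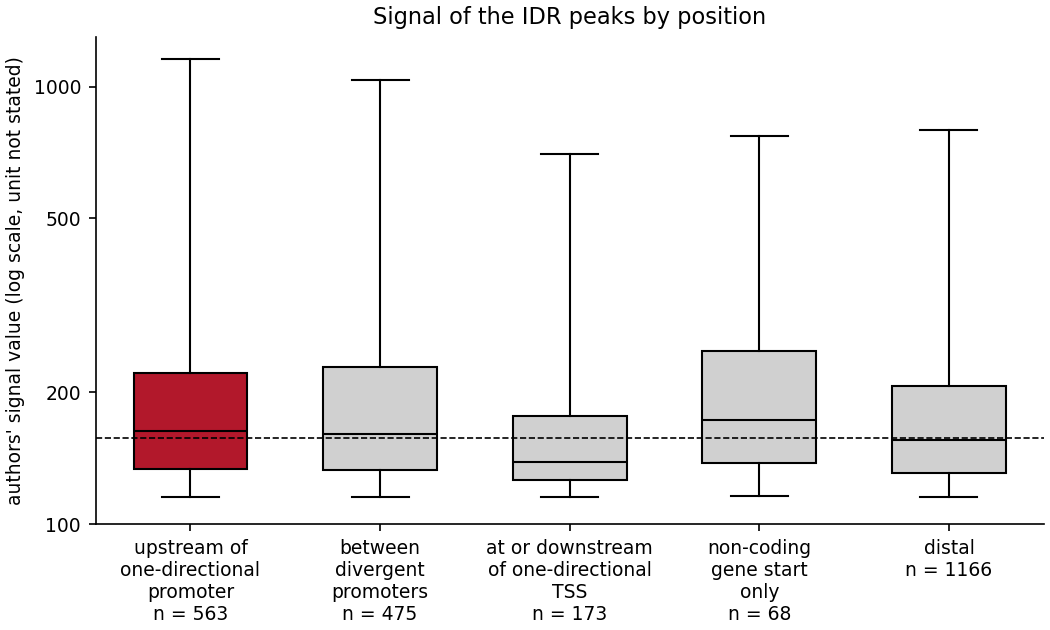
The authors' signal value (log axis, unit not stated) of the 2445 IDR peaks by position, with upstream peaks at one-directional promoters on the left; boxes span the quartiles, lines inside them are medians, whiskers reach the lowest and highest peak, and the dashed line is the median of the whole list (157). The box of peaks at or downstream of a TSS, with a median of 138, is lower than that of the upstream peaks, with a median of 163.

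Nearly all upstream peaks had a summit in both full replicate lists, as did the IDR peaks of the other classes. The pooled list was made from both replicates and each replicate list holds 30000 peaks, so these shares are a description and no test. A summit within 100 bp was present in the full replicate 2 list for 549 of 563 peaks, in the replicate 3 list for 552 and in both for 538 (95.6%), and no upstream peak was missing from both. Both lists held 93.9% of peaks between divergent promoters and 96.0% of those at or downstream of a TSS. They held 97.1% of distal peaks and 100% of those at non-coding starts only. The strongest peak without a replicate 2 summit was at mtSSB, a mitochondrial single-stranded DNA-binding protein gene (rank 675 of the IDR list), and the strongest without a replicate 3 summit was 1 of 2 peaks at CG31886 (rank 475). The median rank was 1104 in replicate 2 and 1130 in replicate 3, and 373 of the 538 (69.3%) had ranks that differed by no more than a factor of 2. Among the 2445 highest peaks of both replicates stood 381 of the 563 (67.7%, 63.6 to 71.5%), compared with 1218 of the 1882 other IDR peaks (64.7%; odds ratio 1.14, 0.934 to 1.39; adjusted p = 0.228 by Fisher's exact test). With TSSs within 200 bp the odds ratio was 0.998. The 1222 stronger IDR peaks were looked up with a stricter limit, among the 1222 highest peaks of each replicate. There 231 of 301 upstream peaks and 634 of 921 others were recovered, a difference that was called (odds ratio 1.49, adjusted p = 0.0190 by Fisher's exact test). Recovery among the 2445 highest peaks of both replicates went with signal, at 271 of the 281 stronger upstream peaks (96.4%) and 110 of the 282 weaker ones (39.0%). Signal of the pooled list was made from both replicates, so this split is a description. Where both replicates had a summit within 100 bp of the IDR summit, the 2 lay a median of 22 bp apart (upper quartile 47 bp). The replicate 2 summit was upstream of the same TSS in 524 of 538 cases (97.4%) and the replicate 3 summit in 527 (98.0%). The matching limit and the position rule bound these values in advance, so they are a description and no test of agreement.

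**Figure D3:**
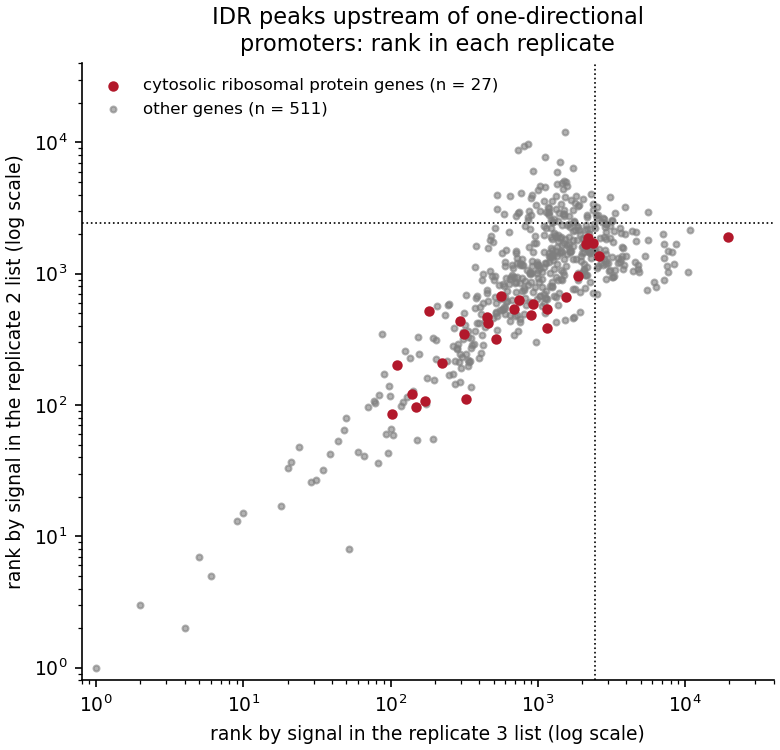
Rank by signal of the 538 upstream IDR peaks found in both replicate lists, replicate 3 on the horizontal and replicate 2 on the vertical axis (both log, rank 1 is the highest signal); dotted lines mark rank 2445. The 27 peaks at cytosolic ribosomal protein genes are in red, and the one far to the right is RpL26, with rank 1908 in replicate 2 and 19580 in replicate 3.

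Most upstream summits lay in sequence that belongs to no gene, as did most other pooled peaks in the same position. The upstream IDR summits were intergenic in 328 cases (58.3%), in the body of their own gene upstream of an internal TSS in 168 (29.8%), in another gene in 54 and in both in 13. Of the other pooled peaks 54.8% were intergenic and 26.9% in their own gene. By feature, 174 of the 563 lay in introns (30.9%, against 31.4% of the others), 28 in 5' UTRs, 15 in non-coding exons, 14 in 3' UTRs and 4 in coding exons. The body of another gene held 67 of the 563 (11.9%, 9.34 to 14.9%), against 554 of the 3020 other pooled peaks in the same position (18.3%, 17 to 19.8%). The odds ratio was 0.601 (0.458 to 0.789; adjusted p = 0.000357 by Fisher's exact test), with 0.639 in replicate 2 alone and 0.525 in replicate 3 alone. It was 0.860 against the peaks ranked directly below (73 of 538, 13.6%; adjusted p = 0.509 by Fisher's exact test) and 0.828 with only the outermost TSS of each gene (adjusted p = 0.238), where the call was lost. The nearest protein-coding gene on the upstream side read in the same direction for 309 (54.9%) and lay a median of 1083 bp away, compared with 57.3% and 923 bp for the other pooled peaks. A start of a non-coding gene lay within 500 bp of 47 upstream peaks (8.35%) and of 171 other pooled peaks (5.66%; odds ratio 1.52, 1.08 to 2.12; adjusted p = 0.0379 by Fisher's exact test). That call was lost in 6 of 7 alternatives, with replicate 3 alone at 1.29 (adjusted p = 0.188 by Fisher's exact test).

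By chromosome arm, 138 upstream peaks lay on 3R, 120 on 3L, 112 on 2L, 17.9% on 2R, 84 on the X and 8 on the small chromosome 4. The X held 14.9% of them (12.1 to 18.1%) and 17.2% of the other pooled peaks in the same position (520 of 3020; odds ratio 0.843, 0.656 to 1.08; adjusted p = 0.228 by Fisher's exact test). In replicate 2 alone the X share was called lower (13.2% against 17.3%; odds ratio 0.727, adjusted p = 0.0201 by Fisher's exact test), while in replicate 3 alone the odds ratio was 0.904 (adjusted p = 0.454). With TSSs within 200 bp it was called at 0.603 (adjusted p = 0.000911 by Fisher's exact test), and against the peaks ranked directly below, with 84 of 563 and 80 of 538 on the X, it was 1.00.

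Base composition set the upstream IDR summits apart from weaker peaks in the same position. GC content within 50 bp of the summit averaged 36.1% ± 11.4 (SD, n = 563 windows), compared with 39.2% ± 11.1 (SD, n = 3020 windows). A GC content under 38.6%, the median of the other pooled peaks, was found in 327 windows (58.1%, 53.9 to 62.2%) and in 1466 (48.5%, 46.7 to 50.3%). The odds ratio was 1.47 (1.22 to 1.76; adjusted p = 9.65e-05 by Fisher's exact test), with 1.54 in replicate 2 alone, 1.52 in replicate 3 alone and 1.54 against the peaks ranked directly below. GC content also followed signal among the 563, with medians of 30.7, 32.7, 38.6 and 40.6% in these 4 signal classes, from the strongest to the weakest.

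Because base composition changes the frequency of any short sequence, motifs were compared in 5 strata of GC content with an exact stratified test, on both strands within 50 bp of the summit. Of 18 listed motifs none was called (0% of those tested), none had an unadjusted p under 0.05, and the A tract and the TATA box were the most frequent. The TATA box (TATAAA) was present at 123 upstream IDR summits (21.8%), at 481 other pooled summits in the same position (15.9%) and in 18.2% of 10141 one-directional promoters. Its odds ratio was 1.16 (0.910 to 1.48; exact stratified test, adjusted p = 0.693), and without the strata it was 1.48 and called (adjusted p = 0.0163 by Fisher's exact test). TATCGATA, the DRE that the factor Dref binds, was present at 23 (4.09%) and 111 (3.68%) summits and in 0.966% of promoters, with an odds ratio of 1.22 (0.772 to 1.93). Motif 1 (GGTCACAC), bound by M1BP, was present at 11 (1.95%) and 73 (2.42%) summits and in 0.434% of promoters, with an odds ratio of 0.939 (0.493 to 1.79). Neither difference was called, and the intervals include both fewer and more sites at the IDR peaks. The CGATA site of BEAF-32, which every DRE contains, was present at 19.9 and 20.03% of summits and in 13.7% of promoters. The GAGAG site of the GAGA factor stood at 12.1 and 16.1% and in 13.9% of promoters, and the site of the early activator Zelda (CAGGTA) at 2.13 and 2.81% and in 2.30% of promoters. Further motifs of the list were the E-boxes CAGCTG and CACGTG, the A tract (AAAAAA), the pyrimidine tract (CTTTTC), the CCAAT box (CCAAT), core promoter motifs 6 (GTATNTTT) and 7 (CANCNCTA) and the sites of Bicoid (TAATCC), Dorsal, Su(H) (GTGGGAA), homeodomain factors (TAATTA) and, as AGATAA, the site of GATA factors. Their odds ratios ran between 0.746 for Bicoid and 1.76 for CACGTG, and their shares of promoters between 0.316% for Dorsal and 23.4% for the A tract. All promoters were taken as windows of the same length centred 137 bp upstream of a gene's outermost TSS. Upstream IDR summits lay 1 to 500 bp from the nearest TSS, which was the outermost in 68.4%. The places therefore differ, and the shares of promoters are not a matched comparison for any of these motifs.

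The direction of a motif can be read at these promoters. Of the 14 motifs that are not palindromes none was called for its orientation (0% of those tested) by the exact binomial test, and 1 had an unadjusted p under 0.05. That was the pyrimidine tract, with 41 occurrences on the gene's strand and 24 on the opposite strand (exact binomial test, adjusted p = 0.373). In the same exact binomial test motif 7 stood at 26 and 13 (adjusted p = 0.373) and motif 6 at 24 and 13 (adjusted p = 0.461). Motif 7 was called within 25 bp of the summit, with 17 and 2 occurrences (exact binomial test, adjusted p = 0.0102), and within 50 bp where TSSs within 200 bp defined the promoters, with 39 and 13 (adjusted p = 0.00573). Within 100 bp of the summit the GAGA site was called in its place, with 122 and 190 occurrences (exact binomial test, adjusted p = 0.00197). These occurrences came from 159 windows. The binomial tests count overlapping occurrences and treat each as independent, although a window can hold several, so their p-values can be too small.

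Among all 2080 6-mers, with both strands merged, 1 was called (0.0481% of those tested), and 118 had an unadjusted p under 0.05. CCGGAA was present at 31 of 563 upstream IDR summits (5.51%, 3.77 to 7.72%), at 53 of 3020 other pooled summits in the same position (1.75%, 1.32 to 2.29%) and in 188 of 10141 one-directional promoters (1.85%). The promoter windows are centred 137 bp upstream of the outermost TSS, while the 31 summits lay a median of 48 bp upstream, so the places differ. Against the other pooled summits the odds ratio of CCGGAA was 3.93 (2.48 to 6.21; exact stratified test, adjusted p = 0.000101), with 3.05 in replicate 2 alone (adjusted p = 0.0132) and 3.58 in replicate 3 alone (adjusted p = 0.000229). The call was lost within 25 bp of the summit (3.06, exact stratified test, adjusted p = 0.399), within 100 bp (2.10, adjusted p = 0.0731) and with outermost TSSs only (3.30, adjusted p = 0.0742). The 6-mer was more frequent at strong upstream peaks than at weak ones, with 25 of the 281 stronger ones (8.90%) and 6 of the 282 weaker ones (2.13%). It was not limited to this position, since it was also present at 12.7% of IDR summits at or downstream of a TSS, 5.26% of those between divergent promoters and 6.003% of distal ones. In these classes the other pooled peaks held it at 4.90, 2.59 and 3.38%. Along the sequence the excess lay near the summit, with 2.84% of upstream IDR peaks in the 50 bp around the summit and 3.20% in the next 50 bp toward the gene, compared with 1.09 and 0.993% of other pooled peaks. No preferred direction was called among the 36 occurrences, with 16 on the gene's strand and 20 on the opposite strand (exact binomial test, p = 0.618). They came from 31 peaks, some with several occurrences, and the test treats each occurrence as independent. The overlapping 6-mers CGGAAG and ACCGGA had odds ratios of 2.56 and 2.76 and were not called (exact stratified test, adjusted p = 0.160 and 0.184). ACCGGA was called in replicate 3 alone (4.06, exact stratified test, adjusted p = 0.000565), among the stronger IDR peaks and with TSSs within 200 or 1000 bp. CGGAAG was called in replicate 2 alone (2.81, exact stratified test, adjusted p = 0.0382), among the stronger IDR peaks and with TSSs within 200 bp.

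**Figure D4:**
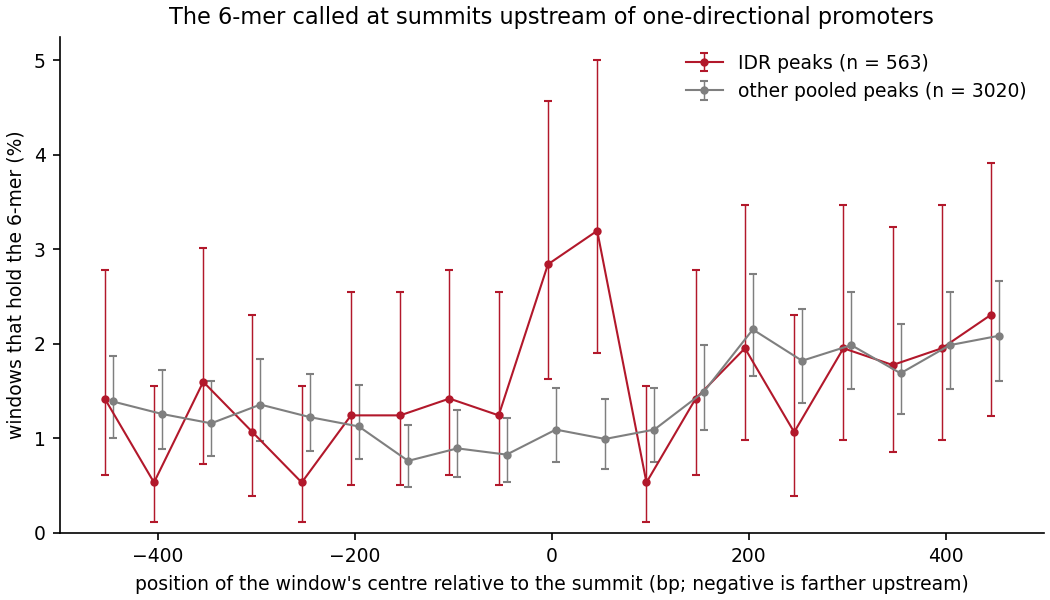
Share of peaks (%) that hold CCGGAA on either strand in 50-bp windows from 450 bp on the far side of the summit (negative positions) to 450 bp toward the gene, for the 563 upstream IDR peaks (red) and the 3020 other pooled peaks in the same position (grey); error bars are exact 95% binomial intervals. The red line stands at 2.84 and 3.20% in the windows at the summit and 50 bp toward the gene, above the grey line at 1.09 and 0.993%.

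Part of the excess of CCGGAA lay at genes of the ribosome. It was present at 10 of the 27 upstream peaks of cytosolic ribosomal protein genes (37.0%) and at 21 of the 536 others (3.92%). Without these genes in either set, a comparison added after seeing the data, 21 of 536 upstream IDR peaks and 53 of 3014 other pooled peaks held it, and the odds ratio was 2.80 (exact stratified test, adjusted p = 0.290 over all 6-mers). Against the peaks ranked directly below the IDR list, also added after seeing the data, it was 3.12 (1.57 to 6.21; 12 of 538 peaks held it, 2.23%; exact stratified test, adjusted p = 0.334). The 3 strongest upstream peaks with the 6-mer were those at Alg3, eEF1gamma and yps, with ranks of 33, 32 and 44 in replicate 2 and 20, 35 and 60 in replicate 3.

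To describe which genes carried these peaks, 28 gene lists were counted without a test. An upstream IDR peak stood at 550 of 13945 protein-coding genes (3.94%), or 5.12% of the 10738 genes that have a TSS with no opposite TSS within 500 bp and could therefore hold one. Cytosolic ribosomal protein genes carried 27 peaks at 91 genes (29.7%), or at 46.6% of the 58 that could hold one, with 17 genes of the large and 10 of the small subunit. Replicate 2 alone gave 25 of these genes and replicate 3 alone 27, while 38 ribosomal protein genes had a peak with TSSs within 200 bp, 17 with TSSs within 1000 bp and 17 with outermost TSSs only. The strongest were RpS4 (signal 473.7, 20 bp upstream), RpL38 (431.6, 9 bp) and RpL30 (423.2, 10 bp). RpS4 ranked 85 in replicate 2 and 103 in replicate 3, RpL38 ranked 96 and 149, and RpL30 ranked 122 and 139. The weakest was RpL26 (124.1), with rank 1908 in replicate 2 and 19580 in replicate 3. RpS14b, also among them, has a near-identical neighbouring copy, RpS14a, and how the authors placed reads between copies is not given in the sources used here.

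Summits at ribosomal protein genes lay close to the TSS. They lay 2 to 51 bp upstream with a median of 19 bp, and 26 of 27 were within 50 bp (96.3%). Of the 536 other upstream peaks 96 were within 50 bp (17.9%), and their median distance was 143 bp. Above the median signal of the IDR list stood 21 of the 27. Translation factor genes carried 6 peaks at 51 genes (11.8%), led by eEF1gamma (4 bp upstream), the ribosome biogenesis factor eIF6 (77 bp) and eEF1alpha1 (44 bp). Mitochondrial ribosomal protein genes had 2 of 73 (mRpL41 and mRpL19) and oxidative phosphorylation genes 2 of 85, the ATP synthase genes blw and ATPsynO. No upstream peak stood at 48 proteasome, 31 aminoacyl-tRNA synthetase, 25 Mediator, 25 general transcription factor, 24 nuclear pore, or 21 replication genes. Of these 26, 13, 9, 12, 10 and 11 could have held one.

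Several lists of genes that regulate development, chromatin or sex determination had more peaks than the 3.94% of all genes, from few genes each. Of the genes in these lists that could hold a peak, between 16.7% (insulator genes) and 38.5% (segment polarity genes) had one, beside 5.12% of all such genes. Segment polarity genes had 5 of 16 (31.3%), with nkd, an antagonist of Wnt signalling (signal 242.9, ranks 479 and 530 in replicates 2 and 3), the kinase gene sgg (194.5, ranks 734 and 780) and ci, the transcription factor of Hedgehog signalling (176.2, ranks 1173 and 761), and, below these, wg (no replicate 2 summit) and ptc. Enhancer of split complex genes, targets of Notch signalling, with their neighbour gro had 4 of 12, led by E(spl)m2-BFM (327.2, 466 bp upstream) and E(spl)m7-HLH (326.1, 412 bp) and with E(spl)m4-BFM the weakest (122.5). Polycomb group genes had 4 of 19, with ph-p far above jing (149.5, no replicate 2 summit), Su(z)2 (134.8) and Psc (131.1). Cellularisation genes had 3 of 11, which were term (237.7), Z600 (220.6) and slam (123.0). Pair-rule genes had 2 of 11, with ftz 402 bp upstream at rank 104 in replicate 2 and 78 in replicate 3, and opa at ranks 862 and 2268. Trithorax group genes had 2 of 14 (Trl and kis), pioneer and early chromatin factors 2 of 9 (opa and Trl), insulator genes 2 of 17 (BEAF-32 and Chro) and sex determination genes 3 of 19 (gro, dpn and da). The lists share genes, since opa, Trl, gro and cact each stand in 2 of them.

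Nearer to the background were mitotic cyclin and kinase genes with 2 of 25 (CycB, 5 bp upstream, and stg, 8 bp), gap and head gap genes with 1 of 13 (kni), dorsoventral genes with 2 of 27 (cact and brk) and maternal axis genes with 2 of 33 (cact and bcd). Spliceosome genes had 1 of 35 (B52). Heat shock and chaperone genes had 3 of 35, with Hsp83 at rank 82 of the IDR list and 66 in replicate 2 (477.5, 105 bp upstream), Hsp27 (322.8, 107 bp) and Hsp22 (122.5, 437 bp). Hox genes had 0 of 8, odorant and gustatory receptor genes 0 of 119 and cuticle protein genes 0 of 95, and all 8, 108 and 92 of them could have held a peak.

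**Figure D5:**
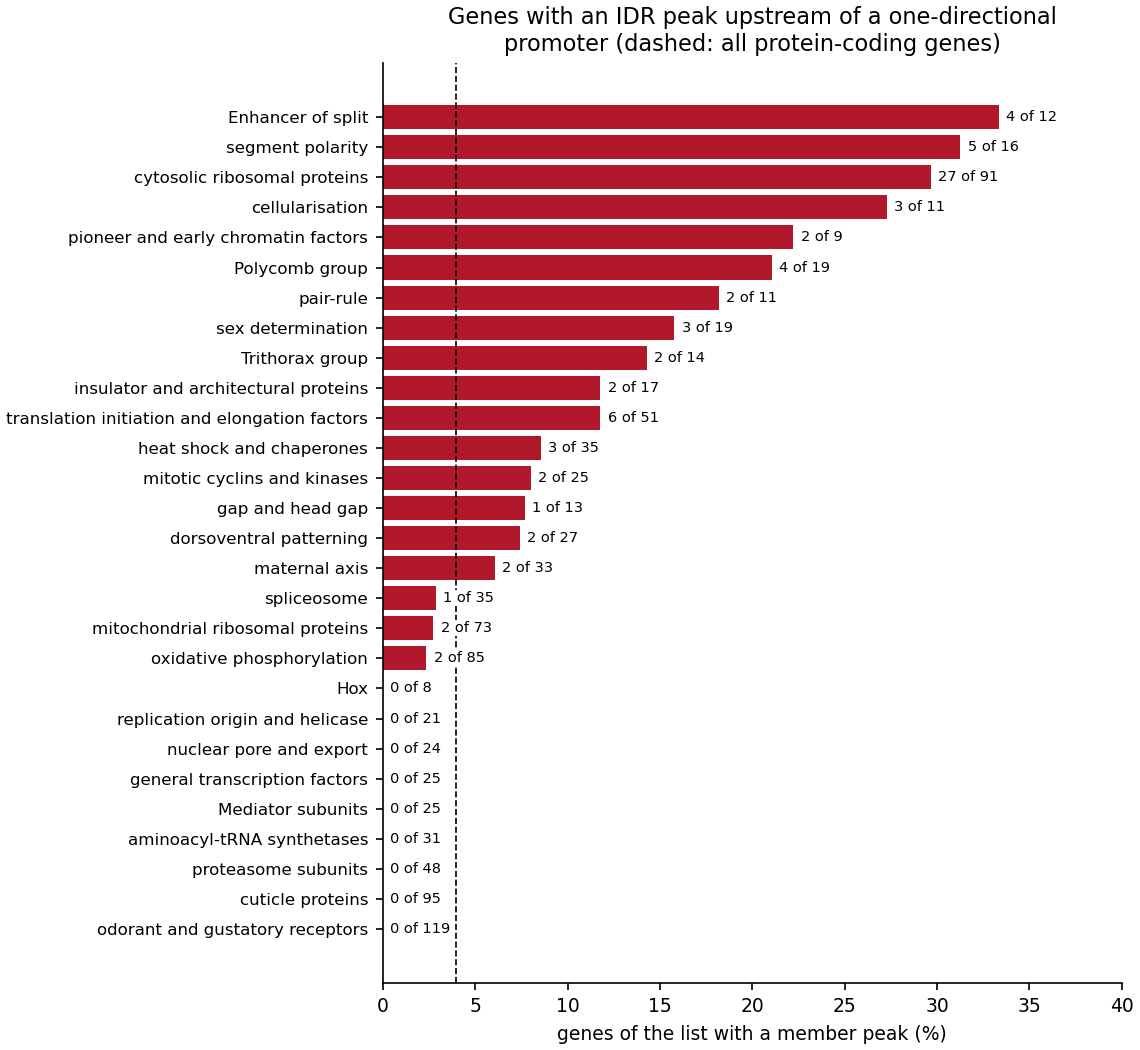
Share of the genes of each list (%) that have an IDR peak upstream of a one-directional promoter, with the number of genes beside each bar; the dashed line is the share of all protein-coding genes (3.94%). Cytosolic ribosomal protein genes have the most peaks (27 of 91), while the bars of similar length above and below them rest on 3 to 5 genes.

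Some genes carried several upstream peaks, at different internal TSSs or along 1 promoter. Ptpmeg2, a protein tyrosine phosphatase gene, had 4, each 22 to 201 bp upstream of its own nearest TSS, with ranks of 803 to 1323 in the IDR list. Rtnl1, a reticulon gene of the endoplasmic reticulum, had 3, at 141, 196 and 292 bp from the nearest TSS of each, and 21 other genes had 2. In both genes the summits did not all share 1 TSS. At the limit of the window, ph-p (499 bp, signal 942.9), CG9184 (499 bp, 125.9) and t-cup (496 bp, 142.5) were just inside, and prage (502 bp, 216.9), Cyp310a1 (503 bp, 157.5) and Rgl (506 bp, 169.9) just outside. The tagged gene CG7271 itself (3L, 18588759 to 18590165, plus strand) had no IDR peak at its promoter. A summit 93 bp from its TSS stood at rank 2824 of the pooled list, from rank 10602 in replicate 2 (94 bp) and rank 1160 in replicate 3 (99 bp). The nearest IDR summit was the one at term, 5164 bp away.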

How the data were processed

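ChIP-seq peak lists of 2 biological replicates, of both pooled and of the reproducible (IDR) peaks, all on dm6, were analysed; 0 columns belonged to other series. The authors called peaks against a control alignment, per the notes deposited with the lists; the control library is not analysed here, and for caller, aligner, IDR threshold and read placement no source used here gives a name or value. The deposited signal per peak has no stated scale, and only its rank was tested. The deposited −log10 q was 3.70 for every peak upstream of a one-directional promoter and was not tested. The summit offset is the authors' other value, in bp from the peak start. Each of the 3 other deposited lists holds 30000 peaks; the depth behind them is unknown, and intervals cover the number of peaks only.

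TSSs came from Ensembl release 115 and sequence from RefSeq; 13943 of 13944 shared gene symbols had identical coordinates in both. Shares were compared with Fisher's exact test and adjusted over 11 tests by Benjamini-Hochberg; motifs (18) and 6-mers (2080) by an exact stratified test over 5 GC strata within 50 bp of the summit, each adjusted within its family at 0.05. Intervals of shares are Clopper-Pearson. Replicate summits were matched within 100 bp. Replicates alone means the 2445 highest peaks of that list. The code was tested on simulated data (Python 3.11.15, numpy 2.4.6, scipy 1.17.1, pandas 2.3.3).

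The upstream peaks and the gene and motif lists were chosen with earlier results of these data known. Named genes are those of the 25 peaks of highest signal, the 3 strongest of each of 28 gene lists (5 listed symbols found no match), the 3 strongest holders of a called sequence, the 3 peaks on either side of the 500 bp limit, genes with 3 or more peaks, and CG7271. RpL26, RpS14b, mtSSB, CG31886, wg, ptc, Psc and E(spl)m4-BFM were named after their values were seen, and the sites at RpS3A and RpL37A were likewise printed. Alternatives changed the replicates, threshold, promoter window, TSS set, sequence window, GC strata and compared peaks.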

Additional observations from a re-analysis of the deposited data

How the results depend on the processing

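Of 131 recomputed values 77 kept their direction and call (or lay within 1.5 times, for counts). Against divergent promoters, the odds ratio for signal above the median turned to 0.901 in the upper part of the IDR list, 0.743 with TSSs within 200 bp, 0.886 with outermost TSSs and 0.939 at the upper quartile of signal, and ranged from 0.879 to 1.11 with 1 replicate left out; against peaks at or downstream of a TSS it was 0.943 in the upper part of the list. Against distal peaks it was called at 1.26 with TSSs within 1000 bp and at 1.27 to 1.30 with 1 replicate left out. Replicate recovery was called at 1.49 in the upper part, there among the 1222 highest peaks of each replicate. With TSSs within 200 bp it was 0.998. The share within 150 bp was 0.891 in the upper part, 0.740 with TSSs within 200 bp, 1.51 within 1000 bp, 1.31 with outermost TSSs, 0.712 against the ranks directly below and 1.21 to 1.32 with 1 replicate left out; limits of 100 and 250 bp gave 0.948 and 1.45. For another gene's body, calls were lost at 0.727 (200 bp), 0.828 (outermost TSSs) and 0.860 (ranks below). For non-coding starts they were lost at 1.19 (upper part), 1.51 (200 bp), 1.33 (1000 bp), 1.52 (outermost) and 1.39 (ranks below), with 1.29 to 1.48 when 1 replicate was left out. The X share was called at 0.603 (200 bp), was 1.00 against the ranks below and ranged from 0.727 to 0.904 with 1 replicate left out. The share of IDR peaks upstream was 1.06 against the ranks below. No GC strata gave 1 called motif, and orientation had 1 call each with TSSs within 200 bp and with windows of 25 and 100 bp. Called 6-mers numbered 3 and 5 with 1 replicate left out, 4 in the upper part, 5 (200 bp), 4 (1000 bp), 0 (outermost TSSs), 0 and 0 (windows of 25 and 100 bp), 14 (no strata), 0 against the ranks below and 0 without ribosomal protein genes. Each set of 3 to 5 held CCGGAA. The others, named after their values were seen, were ACCGGA (without replicate 2, upper part, 200 and 1000 bp), CGGAAG (without replicate 3, upper part, 200 bp), CGGAAA (without replicate 3, 200 bp) and AACCGG (without replicate 3, 1000 bp). Called 1 time each were AGAACG (without replicate 3), AGAAGG (upper part) and ACTTCC (200 bp), and, as less frequent at the IDR peaks, GGAGAA (without replicate 2) and AAAAGC (1000 bp). CCGGAA itself lost its call at 3.30 (outermost TSSs), 3.06 (25 bp), 2.10 (100 bp), 3.12 (ranks below) and 2.80 (without ribosomal protein genes). Ribosomal protein genes with a peak numbered 38 with TSSs within 200 bp, 17 with TSSs within 1000 bp and 17 with outermost TSSs. The cause was not tested. The comparisons without ribosomal protein genes, those of the share and of 6-mers with the ranks below, and the gene list counts were chosen after seeing the data. No paired analysis was possible because both replicates belong to 1 group. Peaks set n here, and with 2 replicates the spread between embryos' collections is known only from their lists. The signal scale, read depth and control library limit what a rank can show, and neighbouring peaks are not independent.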
